A study of Mus musculus with 14 samples.

Results

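Bile acid ring synthesis is carried out by enzymes that turn the cholesterol nucleus into that of a bile acid, and 10 of their genes were followed here in mouse liver. They were taken by symbol from the deposited gene table: Cyp7a1, Cyp8b1, Cyp27a1, Cyp7b1, Cyp39a1, Cyp46a1, Cyp2c70, Hsd3b7, Akr1d1 and Akr1c6. All 10 were found among its 54532 rows, and all 10 were among the 17874 genes with enough counts to be tested. The samples were livers of C57BL/6J mice at 52 weeks of age, either wild type or Abcb11-/-, that is, without a working gene for the bile salt export pump of the hepatocyte. RNA was read by paired-end sequencing in 14 libraries. The 5 groups were liver of wild-type females (n = 2, numbered 2 and 3, a number 1 not being analysed here), non-tumour liver of Abcb11-/- females (n = 3), tumour tissue of Abcb11-/- females (n = 3), liver of wild-type males (n = 3) and liver of Abcb11-/- males (n = 3). The figures name these groups WTF, NTF, Abcb11F, WTM and Abcb11M, in that order. The labels do not say whether tumour and non-tumour samples came from the same animals, what kind of tumour was taken, whether the wild types were littermates, or at what time of day the livers were removed. Replicates are described as separate mice in the design text for each group, and p-values measure the spread between these samples.

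Hepatocytes make bile acids along a classical route and an alternative one. The classical route is opened by Cyp7a1, the rate-limiting hydroxylase of cholesterol in the endoplasmic reticulum, and the alternative one by Cyp27a1 in mitochondria, followed by the oxysterol hydroxylase Cyp7b1. Cyp8b1 adds the hydroxyl group that separates cholic acid from chenodeoxycholic acid, and in mice Cyp2c70 converts chenodeoxycholic acid further into muricholic acids. Bile acids that return to the liver lower Cyp7a1 and Cyp8b1 transcription through the receptor FXR (gene Nr1h4) and its target SHP (gene Nr0b2), and Cyp7a1 also follows a daily rhythm.

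Library totals ran from 14745140 to 19480538 counts, and levels are given as CPM, counts scaled to library size, after TMM scaling, which aligns the libraries by their bulk of genes. Abcb11 stood at 270 to 489 CPM in the wild-type libraries and at 17.9 to 104 CPM in the Abcb11-/- libraries, and the labels do not say which part of the gene was removed. The hepatocyte marker Alb was abundant in all 14 libraries, at 15094 CPM or more. Mitochondrial genes took 15.7 to 42.2% of counts. Libraries stood apart in daily clock genes. A clock score, the mean log2 CPM of 8 genes of the evening arm of the liver clock minus that of 4 genes of its morning arm, was −1.85 to −1.42 in wild-type males and 2.70 to 3.46 in Abcb11-/- males. In females it was 1.27 and 1.73 in the wild types, −0.29 to 4.86 in non-tumour liver and 0.04 to 4.26 in tumours. Clock score and genotype went together in the male libraries, so their parts in the male results below cannot be told apart. Among the wild types, clock score and sex went together in the same way, which leaves the sex differences between wild types with the same limit. The knockout effect compared between the sexes draws on these wild-type libraries and shares the limit. In such bulk tissue, fewer cells of a type and less RNA per cell cannot be told apart either.

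In males, 5 of the 10 ring enzymes were higher in Abcb11-/- than in wild-type liver and 1 was lower. Cyp7a1, Akr1d1, Cyp2c70, Akr1c6 and Cyp27a1 rose and Cyp46a1 fell, where 14.3% of all genes tested rose and 6.32% fell. In non-tumour liver of Abcb11-/- females against wild-type females, 0 of 10 passed by edgeR's quasi-likelihood test, where 4.16% of all genes did. There 1 of 10 members had an unadjusted p under 0.05, as did 21.2% of all genes. DESeq2 called 0 members and 10.9% of all genes, and limma-voom 4 members and 19% of all genes. Tumours against wild-type females gave 2 lower members, Cyp7a1 and Akr1c6, and 0 higher, beside 5.67% of all genes lower and 3.94% higher. Tumours against non-tumour liver gave 0 of 10 by edgeR, with 0% of all genes called. There 5 members and 6.81% of all genes had an unadjusted p under 0.05, and DESeq2 and limma-voom called 0 members, with 0.162% and 0% of all genes. Among wild types, 4 members (Cyp7a1, Akr1d1, Cyp2c70 and Akr1c6) were lower in males than in females and 1 (Cyp7b1) was higher, against 16.1% lower and 7.03% higher over all genes. The median log2 fold change of the 10 members was 0.95 in the male knockout comparison, −0.31 in non-tumour females, −1.16 in tumours against wild type and −0.97 between wild-type males and females, with 0.11, 0.00, 0.03 and −0.12 over all genes tested. Wild-type females serve as the reference of 3 of these comparisons and wild-type males enter 2 of them, so the comparisons are not independent of each other. Of the 5 members that rose in Abcb11-/- males, 4 were the members lower in wild-type males than in wild-type females, and the other was Cyp27a1. Both comparisons use the wild-type males, with opposite sign, which favours such an overlap for any genes. Its share over all genes was not counted.

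**Figure D1:**
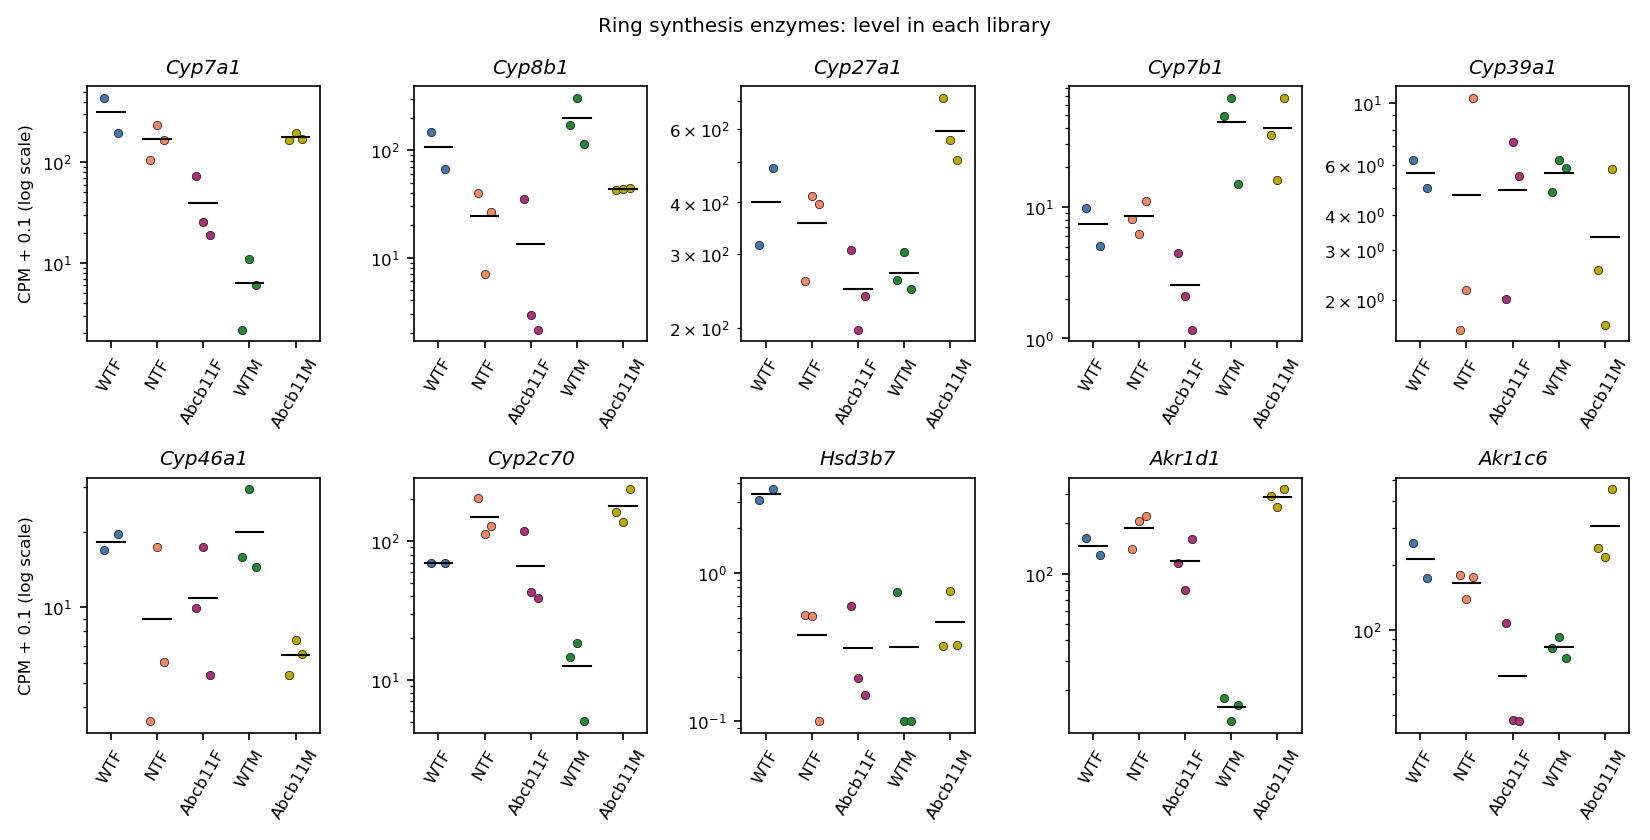
Level of each of the 10 ring enzymes in every library, as TMM-scaled CPM plus 0.1 on a log axis (each panel has its own range). Points are libraries and horizontal lines are group means (n = 2 in WTF, n = 3 elsewhere). For Cyp7a1, Akr1d1 and Cyp2c70 the 3 wild-type males lie below the other 11 libraries, a pattern whose share over all genes was not counted. For Cyp8b1 the 9 Abcb11-/- libraries lie below the 5 wild-type ones.

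**Figure D2:**
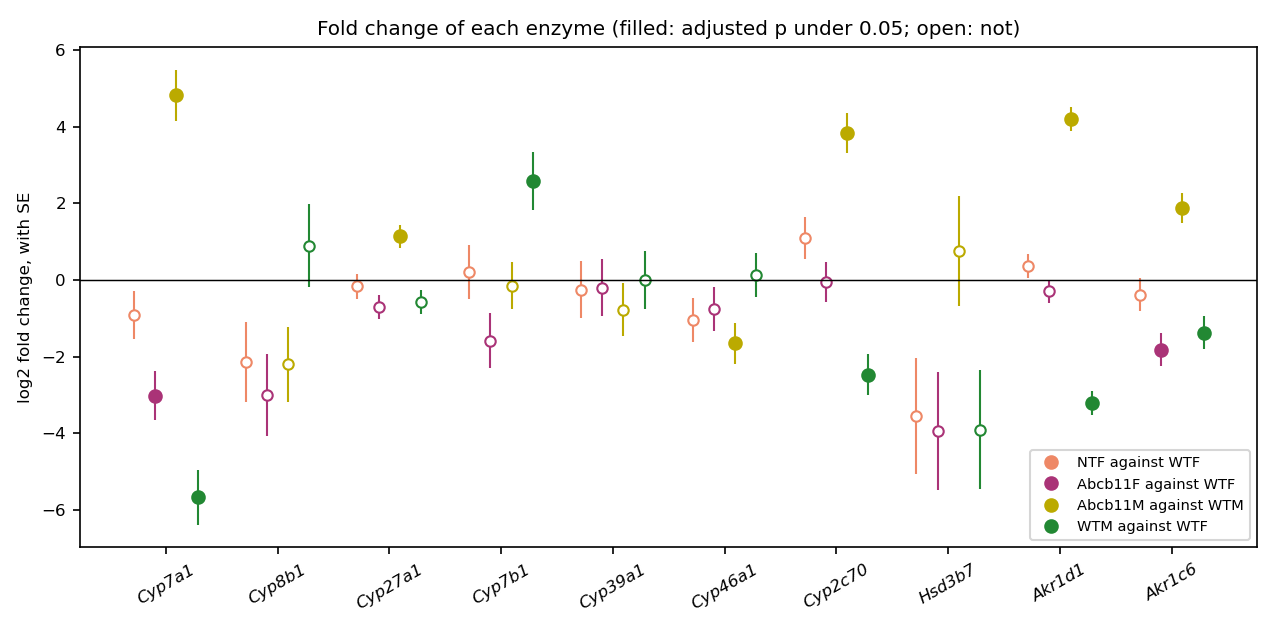
Log2 fold change (y axis, with its SE) of each enzyme in 4 comparisons from 1 edgeR fit. Filled points passed an adjusted p of 0.05 over all genes tested and open points did not. The Abcb11M against WTM points of Cyp7a1, Cyp2c70 and Akr1d1 lie above 3, while their WTM against WTF points lie below −2.

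Promoter sequences were looked up because the members split into genes that stood high and genes that stood low together. Bases before the RefSeq start (GRCm38.p6) were found for 7 of the 10 genes, Cyp7a1, Cyp7b1 and Cyp39a1 being unmatched, and 4 are shown because they hold a word of a liver or clock factor. Capitals mark CAAAGTCCA, the core word bound by the liver receptor HNF4A, in Cyp8b1 and Cyp2c70, of which Cyp2c70 rose in males and Cyp8b1 did not pass there. They also mark TTATGNAA in Akr1d1 and Cyp27a1, which both rose. This is a loose form, with N as any base, of the D-box word of the clock factors Dbp, Tef and Nfil3. The Cyp27a1 match reads TTATGAAA. Akr1c6, which also rose, held neither word, and Cyp7a1 could not be searched. Each is written 5′ to 3′ on the gene's own strand.
Cyp8b1, chr9:121916306-121916555, minus strand: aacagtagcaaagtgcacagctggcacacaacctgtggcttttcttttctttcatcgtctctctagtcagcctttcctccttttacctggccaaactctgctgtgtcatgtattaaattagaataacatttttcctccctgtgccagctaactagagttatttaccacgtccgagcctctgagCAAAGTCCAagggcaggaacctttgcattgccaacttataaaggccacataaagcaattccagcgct
Cyp2c70, chr19:40187334-40187536, minus strand: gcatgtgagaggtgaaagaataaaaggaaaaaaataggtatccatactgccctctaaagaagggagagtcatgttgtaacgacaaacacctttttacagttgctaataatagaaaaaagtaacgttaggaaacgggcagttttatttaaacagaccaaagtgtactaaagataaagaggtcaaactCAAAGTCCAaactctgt
Akr1d1, chr6:37529923-37530172, plus strand: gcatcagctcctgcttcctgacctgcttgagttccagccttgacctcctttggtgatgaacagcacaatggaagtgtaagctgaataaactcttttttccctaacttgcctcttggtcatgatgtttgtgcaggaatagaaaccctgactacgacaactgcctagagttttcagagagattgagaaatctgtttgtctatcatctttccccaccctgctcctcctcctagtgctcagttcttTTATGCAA
Cyp27a1, chr1:74713285-74713534, plus strand: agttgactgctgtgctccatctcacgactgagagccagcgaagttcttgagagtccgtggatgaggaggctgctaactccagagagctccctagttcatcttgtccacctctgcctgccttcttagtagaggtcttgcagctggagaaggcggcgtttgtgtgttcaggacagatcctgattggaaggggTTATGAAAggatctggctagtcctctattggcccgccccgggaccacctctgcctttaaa
Counted from the RefSeq start, the HNF4A word lay 67 to 59 bases before Cyp8b1 and 64 to 56 bases before Cyp2c70. The D-box word lay 8 to 1 bases before the RefSeq start of Akr1d1 and 60 to 53 before that of Cyp27a1. The Cyp2c70 stretch shown was cut short of its RefSeq start, at base 40187334, next to an annotated start farther upstream. Its word therefore lies closer to that annotated start than the distance given. Searched on both strands, the HNF4A word occurred in 0.381% of 27025 promoters (windows of 250 bases) and the D-box word in 3.23%. AAGGTCA, the word of the receptor Nr5a2, and the E-box CACGTG, which occur in 4.05% and 6.05% of promoters, were in 0 of the 7 members, whose windows held 203 to 250 bases. A match is a description of letters and no evidence of binding.

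Cyp7a1 (ENSMUSG00000028240, chromosome 4, 6265612 to 6275633, minus strand, GRCm38) had the widest range, as the ratio of its highest to its lowest library, of the members with more than 1 CPM in most libraries. Its level was 437 and 197 CPM in wild-type females 2 and 3. It was 104, 236 and 167 CPM in non-tumour liver 1, 2 and 3 and 72.9, 25.6 and 18.7 CPM in tumours 1, 2 and 3. Wild-type males had 2.07, 10.7 and 5.95 CPM and Abcb11-/- males 164, 194 and 170 CPM. Tumours lay below both other female groups without overlap, non-tumour and wild-type females overlapped, and wild-type males lay below every other library.

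Cyp7a1 rose in Abcb11-/- males from 6.25 ± 4.34 to 176 ± 15.4 CPM (SD, n = 3 each), a 28.2-fold change (log2 fold change 4.82 ± 0.66 SE, edgeR adjusted p = 0.000461). The call held in each of the alternative fits, the clock score as a covariate included (5.31, edgeR adjusted p = 0.0163), although that term rests on the other groups because the scores of the male groups do not overlap. In tumours it fell 8.12-fold from wild-type females (−3.02 ± 0.64, edgeR adjusted p = 0.0124), a call that was lost without wild-type female 2 (−2.34, edgeR adjusted p = 0.0981) or tumour 2 (−2.76, edgeR adjusted p = 0.0517). Against non-tumour liver the tumour value was −2.11 ± 0.59 (edgeR adjusted p = 0.665, unadjusted p = 0.00302 over genes). Non-tumour liver stood at 169 ± 66.2 CPM (n = 3) against 317 ± 170 CPM in wild-type females (n = 2), with a log2 fold change of −0.91 ± 0.62 (edgeR adjusted p = 0.435). Wild-type males were 50.8-fold below wild-type females (−5.67 ± 0.71, edgeR adjusted p = 0.000219). Abcb11-/- males and non-tumour Abcb11-/- females had nearly equal means, with a difference of 0.06 ± 0.56 on the log2 scale (edgeR adjusted p = 0.998).

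Dbp, a clock output factor, had 0, 1.57 and 0.96 CPM in wild-type males and 53.3 to 59.0 CPM in Abcb11-/- males. It was also low in non-tumour library 1 (1.57 CPM) and tumour 1 (3.71 CPM), where Cyp7a1 stood at 104 and 72.9 CPM. Both of those libraries had clock scores near 0, between the wild-type males and the rest. The part of Dbp in the level of Cyp7a1 was not tested.

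**Figure D3:**
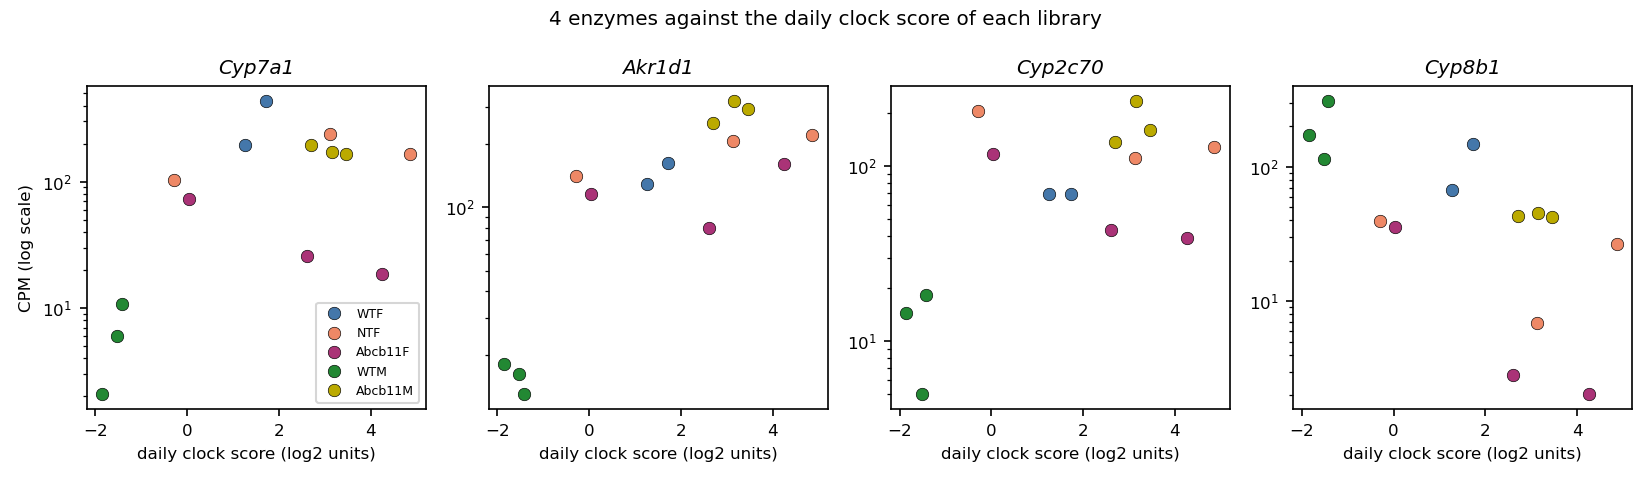
CPM (log axis) of Cyp7a1, Akr1d1, Cyp2c70 and Cyp8b1 against the daily clock score of each library (x axis, log2 units), 1 point per library and 1 colour per group. Wild-type males (scores −1.85 to −1.42) lie lowest for the first 3 genes and among the highest for Cyp8b1, and tumours 2 and 3 have low Cyp7a1 at scores of 2.61 and 4.26.

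Cyp8b1 (ENSMUSG00000050445, chromosome 9, 121914356 to 121916305, minus strand), the sterol hydroxylase of the cholic acid branch, behaved differently from Cyp7a1 in males. Wild-type females 2 and 3 had 147 and 66.9 CPM and wild-type males 173, 310 and 114 CPM. Abcb11-/- males had 42.5, 43.0 and 44.9 CPM. Non-tumour liver had 39.5, 6.94 and 26.7 CPM and tumours 35.4, 2.82 and 2.03 CPM. Every Abcb11-/- library lay below every wild-type library, a pattern found in 1.38% of all genes tested.

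No comparison of Cyp8b1 passed in the edgeR fit. Its log2 fold change was −2.20 ± 0.98 in males (edgeR adjusted p = 0.139), −2.13 ± 1.04 in non-tumour females (edgeR adjusted p = 0.273) and −3.00 ± 1.07 in tumours against wild-type females (edgeR adjusted p = 0.101). The mean of the male and the non-tumour female knockout effects, added after seeing the data, was −2.16 ± 0.71 (edgeR adjusted p = 0.0659, with 15.2% of all genes called). It passed with DESeq2 (−2.24, DESeq2 adjusted p = 0.0114), limma-voom (−2.23, adjusted p = 0.0171) and 4 other settings. In tumours the call likewise depended on the fit, with −4.74 (limma-voom adjusted p = 0.00666) and, without tumour 1, −5.45 (edgeR adjusted p = 0.00228). In a fit of both male groups alone the male value was −2.33 (edgeR adjusted p = 0.00403), and with the clock score as a covariate it was −0.10 (edgeR adjusted p = 0.992). The difference of the knockout effect between females and males was 0.07 ± 1.41, an error too wide to say that the sexes respond alike.

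The balance of the branch enzymes followed from these values. Per kilobase of transcript, the log2 ratio of Cyp8b1 to Cyp7a1 was 7.49, 5.95 and 5.36 in wild-type males 1, 2 and 3. It was −0.48 and −0.46 in wild-type females, −1.07 to −0.83 in Abcb11-/- males, −3.99 to −0.30 in non-tumour liver and −2.11 to 0.05 in tumours. Wild-type males did not overlap with any other group in this ratio.

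Cyp27a1 (ENSMUSG00000026170, chromosome 1, 74713574 to 74737892), the mitochondrial sterol hydroxylase that opens the alternative route, varied less. It had 317 and 483 CPM in wild-type females, 259, 414 and 396 CPM in non-tumour liver and 308, 198 and 238 CPM in tumours. Wild-type males had 260, 304 and 248 CPM and Abcb11-/- males 715, 564 and 506 CPM, without overlap. It rose 2.20-fold in Abcb11-/- males (1.14 ± 0.29, edgeR adjusted p = 0.0123). The call was lost without wild-type male 1 (1.03, edgeR adjusted p = 0.055), without Abcb11-/- male 1 (0.98, edgeR adjusted p = 0.0554) and with the clock score as a covariate (0.999, edgeR adjusted p = 0.318). In tumours against wild type its value was −0.69 ± 0.31 (edgeR adjusted p = 0.174). By length-scaled level it was the most abundant member in each group, with a mean of 107 to 254 FPKM.

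Cyp7b1 (ENSMUSG00000039519, chromosome 3, 18071950 to 18243338), the oxysterol hydroxylase next on that route, stood higher in male libraries of either genotype. Wild-type males had 49.3, 67.2 and 14.8 CPM and Abcb11-/- males 35.0, 15.8 and 67.7 CPM. Females had 9.73 and 4.91 CPM in the wild types, 8.03, 6.11 and 10.99 CPM in non-tumour liver and 4.33, 2.01 and 1.06 CPM in tumours. Every male library lay above every female one, a pattern whose share over all genes was not counted. Cyp7b1 was 5.99-fold higher in wild-type males than in wild-type females (2.58 ± 0.77, edgeR adjusted p = 0.0296), a call lost in 7 of 14 settings. Among them were the clock score as a covariate (2.32, edgeR adjusted p = 0.14) and the replicate block (2.46, edgeR adjusted p = 0.065). Leaving out wild-type female 2 or 3 or wild-type male 1 or 2 also lost it. Abcb11-/- males against non-tumour females differed by 2.24 ± 0.64 (edgeR adjusted p = 0.203), a comparison in which 0 of 10 members and 0.392% of all genes passed, with 4 members and 9.69% of all genes at an unadjusted p under 0.05. DESeq2 called 1 member and 2.63% of all genes, and limma-voom 2 members and 3.97% of all genes. The male knockout effect was −0.14 ± 0.61 (edgeR adjusted p = 0.893). The tumour values were −1.58 ± 0.72 against wild type (edgeR adjusted p = 0.185) and −1.78 ± 0.67 against non-tumour liver (edgeR adjusted p = 0.665).

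Cyp39a1 (ENSMUSG00000023963, chromosome 17, 43667425 to 43751431), which hydroxylates an oxysterol made mainly in brain, stood at 1.47 to 10.3 CPM over the 14 libraries, with groups that overlapped in every comparison. Its log2 fold changes ran from −0.77 ± 0.68 in males to 0.05 ± 0.67 between tumour and non-tumour liver. Cyp46a1 (ENSMUSG00000021259, chromosome 12, 108334381 to 108362234), the cholesterol hydroxylase best known from neurons, was nevertheless counted in every liver library. It had 16.8 and 19.47 CPM in wild-type females, 3.41, 17.3 and 5.97 CPM in non-tumour liver, 9.83, 17.3 and 5.27 CPM in tumours, 15.7, 29.4 and 14.3 CPM in wild-type males and 5.28, 7.31 and 6.39 CPM in Abcb11-/- males. The male groups did not overlap.

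Cyp46a1 fell 3.13-fold in Abcb11-/- males (−1.64 ± 0.54, edgeR adjusted p = 0.0428). This was the weakest of the calls, lost without wild-type male 2 (−1.33, edgeR adjusted p = 0.111) and without Abcb11-/- male 1 (adjusted p = 0.128), 2 (adjusted p = 0.0795) or 3 (adjusted p = 0.115). It was also lost with limma-voom and with the clock score as a covariate. In non-tumour females its value was −1.035 ± 0.57 (edgeR adjusted p = 0.322). The nerve and glia markers Syp, Snap25, Gfap and Rbfox3 summed to 1.70 to 3.88 CPM in the 14 libraries, against 3.41 to 29.4 CPM of Cyp46a1, and in non-tumour library 1 their sum (3.88 CPM) was above Cyp46a1 (3.41 CPM). Snap25 had no counts in 13 libraries. The part of such cells in the Cyp46a1 values was not tested.

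Hsd3b7 (ENSMUSG00000042289, chromosome 7, 127800604 to 127803802, plus strand), the oxidoreductase that acts on the ring after the first hydroxylation, gave too few counts to describe its level. It had 48 and 74 counts in wild-type females and 0 to 10 in the other 12 libraries. In GENCODE vM21, 2746 of its 2769 exon bases are shared with 2 overlapping genes, the read-through gene Gm49388 on the same strand and 9430064I24Rik on the opposite one, which leaves 23 bases of its own. Gm49388 had 0 counts in all libraries, and 9430064I24Rik had 13 and 16 counts in wild-type females and 0 to 5 elsewhere. Whether reads of these shared bases were dropped in counting was not tested. The log2 fold change of −3.55 ± 1.52 in non-tumour females (edgeR adjusted p = 0.191), like the others of this gene, is therefore uncertain.

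Akr1d1 (ENSMUSG00000038641, chromosome 6, 37530173 to 37568815, plus strand), the reductase that bends the steroid nucleus by saturating its first ring and so gives bile acids their shape, split wild-type males from all other libraries. Wild-type males had 18.0, 12.95 and 16.2 CPM, and Abcb11-/- males had 293, 251 and 321 CPM. In females it had 163 and 130 CPM in the wild types, 141, 206 and 220 CPM in non-tumour liver and 116, 79.9 and 161 CPM in tumours. The highest wild-type male lay below the lowest of the other 11 libraries, while the female groups overlapped. It rose 18.3-fold in Abcb11-/- males (4.196 ± 0.31, edgeR adjusted p = 3.17e-06) and was 9.28-fold lower in wild-type males than in wild-type females (−3.21 ± 0.32, edgeR adjusted p = 2.93e-05). Both calls held in each alternative fit. With the clock score as a covariate the male value was 3.66 (edgeR adjusted p = 0.000436). That fit cannot tell clock from genotype here, as for Cyp7a1, because the scores of the male groups do not overlap. Its values in females were 0.37 ± 0.31 in non-tumour liver (edgeR adjusted p = 0.53) and −0.30 ± 0.31 in tumours (edgeR adjusted p = 0.572), both against wild type.

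Akr1c6 (ENSMUSG00000021210, chromosome 13, 4434306 to 4457877), an aldo-keto reductase of steroids placed at the following step, had 254 and 174 CPM in wild-type females, 180, 139 and 176 CPM in non-tumour liver and 107, 37.9 and 37.2 CPM in tumours. Wild-type males had 82.0, 92.5 and 74.0 CPM and Abcb11-/- males 241, 219 and 454 CPM. Tumours lay below both other female groups and Abcb11-/- males lay above wild-type males. It rose 3.68-fold in Abcb11-/- males (1.88 ± 0.40, edgeR adjusted p = 0.00466), in each alternative fit. In tumours it fell 3.53-fold from wild type (−1.82 ± 0.43, edgeR adjusted p = 0.0174), a call lost without wild-type female 2 or 3 or without tumour 2 or 3 (edgeR adjusted p = 0.0663 to 0.111). Against non-tumour liver the tumour value was −1.44 ± 0.39 (edgeR adjusted p = 0.665). Wild-type males were 2.59-fold below wild-type females (−1.37 ± 0.43, edgeR adjusted p = 0.0311), a call lost when any of these 5 libraries was left out (edgeR adjusted p = 0.069 to 0.184). Its transcripts share 1.39% of their words of 50 bases with Akr1c20, so little of its count could belong to that relative.

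Cyp2c70 (ENSMUSG00000060613, chromosome 19, 40153353 to 40187333, minus strand), the mouse enzyme of muricholic acid formation, had 69.1 and 68.95 CPM in wild-type females 2 and 3. Non-tumour liver had 205, 111 and 128 CPM and tumours 118, 43.2 and 38.6 CPM. Wild-type males had 14.4, 18.3 and 4.94 CPM and Abcb11-/- males 161, 138 and 237 CPM. Non-tumour liver lay above the wild-type females, and Abcb11-/- males lay above the wild-type males. It rose 14.3-fold in Abcb11-/- males (3.84 ± 0.53, edgeR adjusted p = 0.000364), in each alternative fit. When the clock score was a covariate the value was 4.97 (edgeR adjusted p = 0.0013), with the same limit as for Cyp7a1. The value in non-tumour females was 1.10 ± 0.54 (edgeR adjusted p = 0.259), which passed with limma-voom (1.17, adjusted p = 0.0375). In tumours against wild type it was −0.05 ± 0.52 (edgeR adjusted p = 0.964), with tumour 1 above and tumours 2 and 3 below the wild-type females. Wild-type males were 5.52-fold below wild-type females (−2.46 ± 0.53, edgeR adjusted p = 0.00526).

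The knockout effect was compared directly between the sexes as the effect in non-tumour females minus that in males. It differed in 4 of 10 members, all lower in females: Cyp7a1 (−5.72 ± 0.88, edgeR adjusted p = 0.00195), Akr1d1 (−3.82 ± 0.42, edgeR adjusted p = 0.000226), Cyp2c70 (−2.73 ± 0.71, edgeR adjusted p = 0.0248) and Akr1c6 (−2.26 ± 0.58, edgeR adjusted p = 0.0225). Over all genes tested 8.68% were lower and 2.2% higher in this comparison. The calls of Cyp7a1 and Akr1d1 held in each alternative fit, of which the one with the clock score cannot tell clock from genotype in males. That of Cyp2c70 was lost without wild-type female 2 or 3, non-tumour 2 or 3, wild-type male 1 or Abcb11-/- male 3 (edgeR adjusted p = 0.0509 to 0.12), and that of Akr1c6 without wild-type female 2 or 3, non-tumour 1 or 3 or wild-type male 1 (edgeR adjusted p = 0.0527 to 0.0892). The Abcb11-/- groups of both sexes had 169 and 176 CPM of Cyp7a1 on average, while the wild-type groups had 317 and 6.25 CPM. For Cyp27a1 the difference was −1.30 ± 0.42 (edgeR adjusted p = 0.0612), which passed with DESeq2 (−1.19, DESeq2 adjusted p = 0.0242) and limma-voom (−1.44, adjusted p = 0.0208).

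The enzymes that follow on the side chain, and those that conjugate the product, moved in part with the ring enzymes in males. Counts of this list and the later ones stand beside the same shares over all genes tested. In Abcb11-/- males 14.3% rose and 6.32% fell, and in non-tumour females 4.16% passed. In tumours against wild type 3.94% rose and 5.67% fell. Between wild types 7.03% were higher and 16.1% lower in males. Of 9 such genes 4 rose in Abcb11-/- males and 0 fell: the peroxisomal oxidase Acox2 (1.54 ± 0.27), the racemase Amacr (0.87 ± 0.26), the conjugating transferase Baat (0.77 ± 0.23) and the ligase Slc27a5 (1.20 ± 0.39), with edgeR adjusted p = 0.00148 to 0.0417. The median of the 9 was 0.33. In non-tumour females 1 of 9 fell, the thioesterase Acot8 (−0.84 ± 0.23, edgeR adjusted p = 0.0489), and it was again the 1 lower gene of the list in tumours against wild type (−0.9962 ± 0.23, edgeR adjusted p = 0.0149).

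Electron donors of the hydroxylases rose in 4 of 5 cases in Abcb11-/- males. Fdx1, the ferredoxin that feeds mitochondrial Cyp27a1, went from 29.0 ± 4.03 to 147 ± 52.7 CPM (2.34 ± 0.35, edgeR adjusted p = 0.000493). Cyb5a (2.06 ± 0.35), Cyb5r3 (1.47 ± 0.35) and Por, the reductase of the microsomal P450 enzymes (1.34 ± 0.40), rose with it. In non-tumour females 0 of 5 passed, with a median of 0.80. In tumours against wild type 1 of 5 rose, Cyb5r3 (1.58 ± 0.40, edgeR adjusted p = 0.0246).

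Among 18 regulators of the synthesis genes, 6 rose and 2 fell in Abcb11-/- males. Mafg, a repressor of Cyp8b1 among others (1.498 ± 0.23), Ppargc1a, a coactivator (2.62 ± 0.42), and Zfp36l1, an RNA-binding protein that shortens the life of Cyp7a1 RNA (1.16 ± 0.25), were among those with the smallest p. Nr1h4, the gene of FXR, fell from 263 ± 22.8 to 137 ± 16.6 CPM (−0.94 ± 0.29, edgeR adjusted p = 0.0325). Nr0b2, the gene of SHP, stood at 17.1 to 23.4 CPM in wild-type and 35.0 to 56.6 CPM in Abcb11-/- males, without overlap and without passing the test (1.04 ± 0.62, edgeR adjusted p = 0.26). Dbp rose (6.06 ± 1.64, edgeR adjusted p = 0.0275). In females Nr0b2 was split by library rather than by group, at 13.03 and 15.3 CPM in the wild types, 8.34, 46.2 and 30.1 CPM in non-tumour liver and 6.12, 33.2 and 42.2 CPM in tumours. Library 1 of both Abcb11-/- female groups lay below the wild types, and these were also the libraries with low Dbp.

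In non-tumour females 4 of the 18 regulators fell, among them Nr1i3, the gene of the receptor CAR (−1.89 ± 0.37), Zfp36l1 (−1.16 ± 0.27) and Nr5a2, an activator of Cyp7a1 and Cyp8b1 (−1.07 ± 0.27), with edgeR adjusted p = 0.017 to 0.0419. In tumours against wild type 5 of 18 fell, these genes among them, with Nr1i3 at −2.94 ± 0.38, and so did Foxa2, named here after its value was seen. Nr1h4 had values of −0.81 ± 0.32 in non-tumour females (edgeR adjusted p = 0.155) and −0.48 ± 0.32 in tumours (edgeR adjusted p = 0.35). Zfp36l1 thus had opposite signs in the sexes, and the difference passed (−2.33 ± 0.36, edgeR adjusted p = 0.00156). Hnf4a, named because its word stands in the Cyp8b1 and Cyp2c70 promoters shown above and not by its values, did not pass in any of these comparisons, with 0.20 ± 0.25 in males and −0.02 ± 0.28 in non-tumour females.

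**Figure D4:**
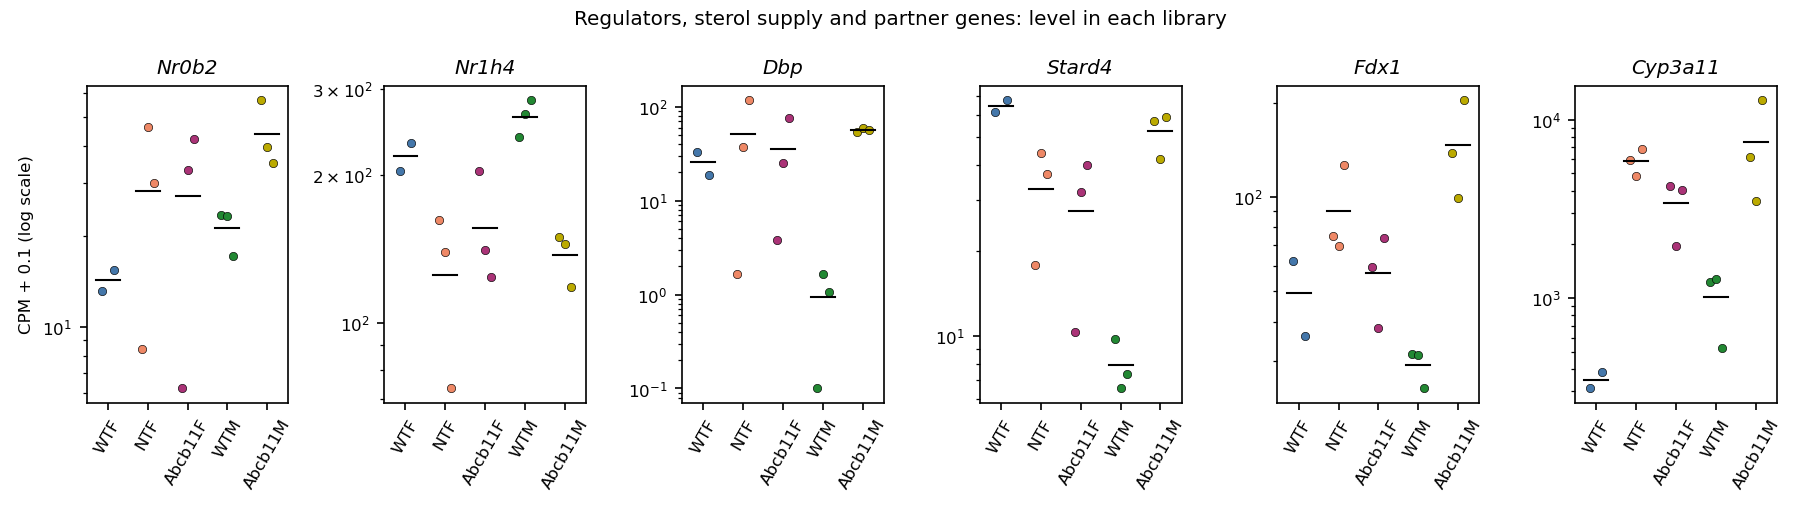
CPM plus 0.1 (log axis) of 6 genes around the ring enzymes in every library: the regulators Nr0b2, Nr1h4 and Dbp, the cholesterol carrier Stard4, the electron donor Fdx1 and the bile acid hydroxylase Cyp3a11. Points are libraries, lines are group means (n = 2 in WTF, n = 3 elsewhere); Stard4 is lowest in the 3 wild-type males, Dbp is low there and in library 1 of NTF and Abcb11F, and Cyp3a11 is at 1949 CPM or more in all 9 Abcb11-/- libraries.

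Sterol supply differed in males in the same libraries. Of 11 genes of cholesterol supply and of side routes, 10 were tested, and 8 of these rose in Abcb11-/- males with 0 lower (median 2.26). Stard4, which carries cholesterol to membranes (2.75 ± 0.43), the lipoprotein receptor Scarb1 (2.21 ± 0.39), and Cyp3a11, which hydroxylates bile acids as well as drugs (2.89 ± 0.51), were among those with the smallest p. Between wild types, 6 of the 10 were lower in males, among them Stard4 (−3.05 ± 0.46). In non-tumour females 1 of 10 rose, Cyp3a11, from 347 ± 51.0 CPM (n = 2) to 5890 ± 1020 CPM (n = 3; 4.08 ± 0.65, edgeR adjusted p = 0.00664). Tumours against wild type had Cyp3a11 higher (3.30 ± 0.62) and the sterol exporters Abcg5 (−1.17 ± 0.31) and Abcg8 (−1.61 ± 0.37) lower. Cyp3a11 has near-identical relatives, so the split of its reads is uncertain.

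Of 13 clock genes, 3 of which also stand among the regulators, 6 rose and 1 fell in Abcb11-/- against wild-type males, and 5 were lower and 0 higher in wild-type males than in wild-type females. In non-tumour females 0 of 13 passed, and in tumours against wild type 1 fell, Clock itself (−1.15 ± 0.28, edgeR adjusted p = 0.0195).

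Some markers of other cell types and of the liver lobule passed in the same comparisons, and their part in the results was not tested. The lists are short, so their counts, read beside the shares over all genes given above, are no result about a cell type. Summed cholangiocyte markers were 418 to 559 CPM in non-tumour liver, 660 to 1349 CPM in tumours and 133 and 277 CPM in wild-type females, with 3 of 6 higher in tumours than in wild type (Krt7, Krt19 and Spp1) and 1 of 6, Krt7, lower in Abcb11-/- than in wild-type males. In males the sums were 57.3 to 83.7 CPM in wild type and 64.0, 350 and 70.8 CPM in Abcb11-/- males 1, 2 and 3. Stellate cell markers summed to 114, 545 and 217 CPM in tumours, against 82.1 to 149 CPM in the other female libraries, and 0 of 6 passed. Hepatocyte markers, 7 of which were matched, passed in 0 of these comparisons. Macrophage markers rose in 2 of 6 cases in non-tumour females (Csf1r and Cd5l), in 1 of 6 in tumours against wild type (Csf1r, 1.51 ± 0.28) and in 2 of 6 in Abcb11-/- males (Vsig4 and Cd5l). Endothelial markers fell in 2 of 5 cases in Abcb11-/- males (Clec4g and Pecam1), and 1 of 5 rose in tumours against wild type (Cdh5, 1.51 ± 0.37). Between wild types, 2 of 6 cholangiocyte markers were lower (Spp1 and Cftr) and 2 of 5 endothelial markers higher (Clec4g and Pecam1) in males.

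Tumours 2 and 3, which had the lowest female Cyp7a1, Cyp8b1 and Akr1c6, also had the lowest pericentral markers. The sum of the 6 pericentral genes was 711 and 507 CPM in tumours 2 and 3, against 2854 CPM in tumour 1 and 1923 to 6870 CPM in the other 11 libraries. These genes mark the hepatocytes around the central vein, where Cyp7a1 is known to be most active. The part of lobule position in the tumour values was not tested. Periportal markers summed to 2724, 635 and 2609 CPM in tumours 1, 2 and 3 and to 833 to 7435 CPM in the other 11 libraries. In males 3 of 6 periportal markers rose (Hal, Ass1 and Gls2) and 1 of 6 pericentral ones (Cyp1a2), where 14.3% of all genes rose. In non-tumour females 1 of 6 periportal markers rose (Ass1), where 4.16% of all genes passed.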

How the data were processed

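Liver RNA of 14 mouse samples in 5 groups was sequenced and, per the submitters' processing notes, aligned to GRCm38 with HISAT2 2.0.5 and counted with featureCounts 1.5.0-p3. The deposited count columns hold whole, unscaled counts per gene, and the authors scaled the FPKM columns by gene length and library total. FPKM served only to compare levels between genes. The strand setting of the counting and the library kit are not given in the sources used here.

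The counts were scaled by TMM, filtered (filterByExpr over the 5 groups) and tested in edgeR 4.0.16 under R 4.3.3 with robust quasi-likelihood F tests, 2-sided, in 1 fit of 14 libraries without covariates. P-values were adjusted by Benjamini-Hochberg over 17874 genes within each comparison, with a threshold of 0.05. SE is the log2 fold change divided by the root of F. The common biological coefficient of variation was 0.442. No library pair held identical counts. The fit was tested on simulated data.

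Other settings tried were scaling by upper quartile or by RLE, testing every gene or only those at 1 CPM in 3 libraries, DESeq2 1.42.0 and limma-voom (3.58.1) with quality weights in place of edgeR, a fit restricted to the groups compared, a replicate block, and leaving out each library in turn. After the data had been seen, 3 more were added: the clock score as a covariate, both number 1 libraries of Abcb11-/- females left out, and the mean knockout effect of both sexes. The clock scores of the male groups did not overlap, nor did those of the wild-type groups. A call kept or lost with that covariate therefore cannot separate the clock from genotype in males or from sex in wild types. Tumours deviated from their group mean together with the equally numbered non-tumour liver (correlations of 0.49, 0.387 and 0.333 over 8805 genes above 8 CPM). Unequally numbered libraries of these groups had −0.436 to 0.052. Between groups that differ in sex or genotype the values ran from −0.493 (non-tumour 2 with Abcb11-/- male 3) to 0.419 (wild-type male 3 with Abcb11-/- male 2). Values near these thus also arose between different animals, so whether equal numbers mark the same animal stays unknown. The comparison of tumours with non-tumour liver treated the libraries as unpaired, and no paired fit of these groups was run.

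All members were described. From the other lists at most 4 called genes per comparison were named by smallest p, with Nr0b2, Nr1h4 and Dbp always. Of the list genes 109 were matched and 1 was not. Some list genes are not reported here by name, and counts include them. The members and lists were chosen with earlier results of these data known. Promoters are RefSeq's (GRCm38.p6) and exon overlaps are from GENCODE vM21, whose coordinates of the 10 members equal those of the deposited table.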

Additional observations from a re-analysis of the deposited data

Results flagged for a closer look

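The knockout effect differed between the sexes in 4 ring enzymes, by the test of the difference itself (non-tumour females minus males, edgeR). The difference was −5.72 for Cyp7a1, −3.82 for Akr1d1, −2.73 for Cyp2c70 and −2.26 for Akr1c6 on the log2 scale. In each case the wild-type males were the low group, and their daily clock score was also the lowest. The part of the clock in these differences was not tested. With the score as a covariate the difference of Cyp7a1 was −6.05 (edgeR adjusted p = 0.0115). That fit cannot tell clock from genotype, because the scores of the male groups do not overlap.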

How the results depend on the processing

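The number of members called in Abcb11-/- against wild-type males (6) stayed within 1.5 times in every alternative, a bound that still allows losses. Cyp27a1 and Cyp46a1 were both lost without Abcb11-/- male 1 and with the clock score as a covariate. Cyp8b1 was gained without a low-count filter and with the compared groups alone. In non-tumour females against wild type, where 0 were called, it was 2 without a low-count filter, 4 with limma-voom, 1 with the compared groups alone and 0 to 1 with each library left out. In tumour against non-tumour liver (0 called) it was 4 without the filter and 0 to 1 with a library left out, the 1 appearing without tumour 1. In tumours against wild-type females (2 called) it was 5 without the filter, 4 with limma-voom and 0 to 3 with a library left out, being 0 without wild-type female 2 or without tumour 2. The female minus male difference (4 called) had 2 to 4 with a library left out, with 2 without wild-type female 2 or 3 or non-tumour 3, and 5 with DESeq2 and 6 with limma-voom. Wild-type males against wild-type females (5 called) had 3 to 4 with a library left out, 6 with DESeq2 and limma-voom and 7 without the filter. Abcb11-/- males against non-tumour females (0 called) had 1 without the filter, 1 with DESeq2 and 2 with limma-voom. The causes were not tested. With the replicate number as a block the counts were 0, 0, 2, 6, 4, 5 and 0 for non-tumour females, both tumour comparisons (first that with non-tumour liver), males, the female minus male difference, wild types and Abcb11-/- males against non-tumour females, so the block moved no count. Among single members it cost the call of Cyp7b1 between wild types and added that of Hsd3b7 there (−5.79, edgeR adjusted p = 0.0292). The block ties equal numbers across all groups, different animals included, so it is no test of a pairing of tumour and non-tumour liver. Over all genes, 743 were called in non-tumour females and 1739 without the filter, 1942 with DESeq2, 3397 with limma-voom, 480 with the block and 17 without wild-type female 3. In males 3688 were called, and 372 with the clock score as a covariate. In tumours against wild type 1718 were called, 4599 with limma-voom and 157 without wild-type female 3. The number called over all genes thus moved with the setting, so a changed member count alone says nothing particular of the members. No member that was called changed sign. With 2 or 3 libraries a group, precision is limited, and Hsd3b7 in particular rests on 0 to 74 counts.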

Other observations

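The genes whose log2 CPM followed a member most closely over the 14 libraries, among 9784 protein-coding genes of at least 5 CPM, are given as a description. For Cyp8b1 they were Crot, a peroxisomal acyltransferase (Pearson r = 0.934, and 0.896 without tumours 2 and 3, the farthest libraries), Wrnip1 (0.93) and Sntb1 (0.919). For Cyp7b1 they were Psma3 (0.961, and 0.966 without tumour 3 and Abcb11-/- male 3), Plekhb1 (0.916) and Tmem243 (0.904). For Cyp7a1 they were the carrier gene Slc10a5 (0.943, and 0.902 without wild-type males 1 and 3), Wdr45b (0.94) and Gm4756 (0.94), and there the wild-type males form a cluster of their own. These libraries share their groups, so such values say nothing of shared control.

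The 10 members together took 499 to 851 CPM in wild-type males, 1433 to 1813 CPM in Abcb11-/- males, 1153 and 1422 CPM in wild-type females, 941 to 1141 CPM in non-tumour liver and 413 to 774 CPM in tumours. Per kilobase, the log2 ratio of Cyp7a1 to Cyp7b1, which open the classical route and follow on the alternative one, was −5.52, −3.59 and −2.26 in wild-type males and 0.38 to 2.67 in Abcb11-/- males. All female libraries lay higher, at 2.73 to 4.54.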
